A study of Mus musculus with 48 samples.

Results

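The 39 genes described here encode the BMP and TGF-beta pathway: 12 ligands or ligand-processing enzymes, 11 receptors, 8 Smads, 4 Id proteins and 4 inhibitors. They were taken by symbol from the 50763 genes of the count tables, and all 39 were found there. RNA was measured in 48 libraries of primary cells from 4 mouse lines, each heterozygous for a Cre-dependent BERKY3 allele, a biosensor of an active G protein alpha subunit that names the line: Gas, Gai, Gaq or Ga13. Astrocytes came from the brain of the Gas line, and lung fibroblasts came from the other 3 lines. Each line had 4 groups of 3 libraries: stimulated with Cre virus, stimulated with empty virus, unstimulated with Cre virus, and unstimulated with empty virus. Stimulated astrocytes had received 1 µM isoproterenol, an agonist of beta-adrenergic receptors, and stimulated fibroblasts 100 µM TRAP-6, a peptide agonist of the thrombin receptor PAR1. Unstimulated cells had fresh medium without agonist for the same 90 min. The virus was AAV2/1-CMV-Cre, in which the CMV promoter drives Cre, or AAV2/1-CMV-empty, so every group carried the allele and a virus. The labels give replicate numbers but not how many animals or cultures stand behind them, so p-values measure only the spread between these samples, which may be technical.

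TGF-beta, activin and BMP ligands are secreted dimers that bind pairs of type I and type II serine/threonine kinase receptors. Activated type I receptors phosphorylate Smads: TGF-beta and activin receptors act mainly on Smad2 and Smad3, and BMP receptors on Smad1, Smad5 and Smad9. These pair with Smad4, enter the nucleus and switch on target genes, among them Id1, Id2 and Id3 for BMP and the inhibitory Smads, Smad6 and Smad7, which feed back on the pathway. In lung fibroblasts TGF-beta is best known for driving matrix production, and in the brain BMP signals favour the astrocyte fate.

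Total counts per library were 15.6 to 42.6 M. Levels are given as CPM, counts scaled to library size, after TMM scaling over the 48 libraries. After the filter on low counts 39 members were tested in Gas, 37 in Gai, 36 in Gaq and 37 in Ga13: Bmp7 and Nog were below the filter in the 3 fibroblast lines, and Bmp3 also in Gaq. The biosensor transcript averaged 16 to 148 CPM over the Cre virus groups, against 0.0305 to 0.788 CPM over the unstimulated empty virus groups. The 10 astrocyte markers summed to 7440 to 8460 CPM in the Gas libraries, against 184 to 332 CPM in the fibroblast libraries, where Aqp4 was at 0 in every Gai and Gaq group. The 10 fibroblast markers summed to 8130 to 9804 CPM in the Gas libraries, where Tcf21 was at 0, against 47642 to 72513 CPM in the fibroblast libraries. Exons of 11 members overlap another gene (Bmp4, Bmp5, Bmp6, Tgfb2, Tgfb3, Bmpr1a, Acvr2a, Acvrl1, Tgfbr3, Smad5 and Id4), in an annotation of another build than that of the counts. With strand use not given, their counts may be affected by reads shared with that neighbour.

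With agonist Smad6 fell in all 4 lines. The BMP targets Id1 and Id3 fell in Gas, Gaq and Ga13. In Gai they fell when the replicate number was fitted as a block (edgeR adjusted p = 0.0204 and 1.13e-06). In isoproterenol-treated astrocytes 22 of the 39 members changed: 10 rose and 12 fell, at an edgeR adjusted p under 0.05 for the response averaged over both viruses. Over all genes tested in that line 11.7% rose and 11.5% fell. In Ga13 fibroblasts 3 members rose and 8 fell of 37, where 4.69% of all genes rose and 3.69% fell. In Gaq fibroblasts 4 rose and 3 fell of 36, where 3.78% of all genes rose and 1.83% fell. In Gai fibroblasts none rose and 2 fell of 37, where 0.732% of all genes rose and 0.388% fell. Without adjustment 8 Gai members had p under 0.05, and DESeq2 called 4. Libraries of the same replicate number deviated together in Gai, and with that number as a block 8 members fell and none rose, where 2.1% of all genes fell and 2.89% rose. The median log2 change of the members was -0.014 in Gas, 0.0041 in Gai, 0.017 in Gaq and 0.0054 in Ga13, beside -0.0037, -0.0017, -0.0062 and -0.0016 over all genes tested in the same lines.

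**Figure D1:**
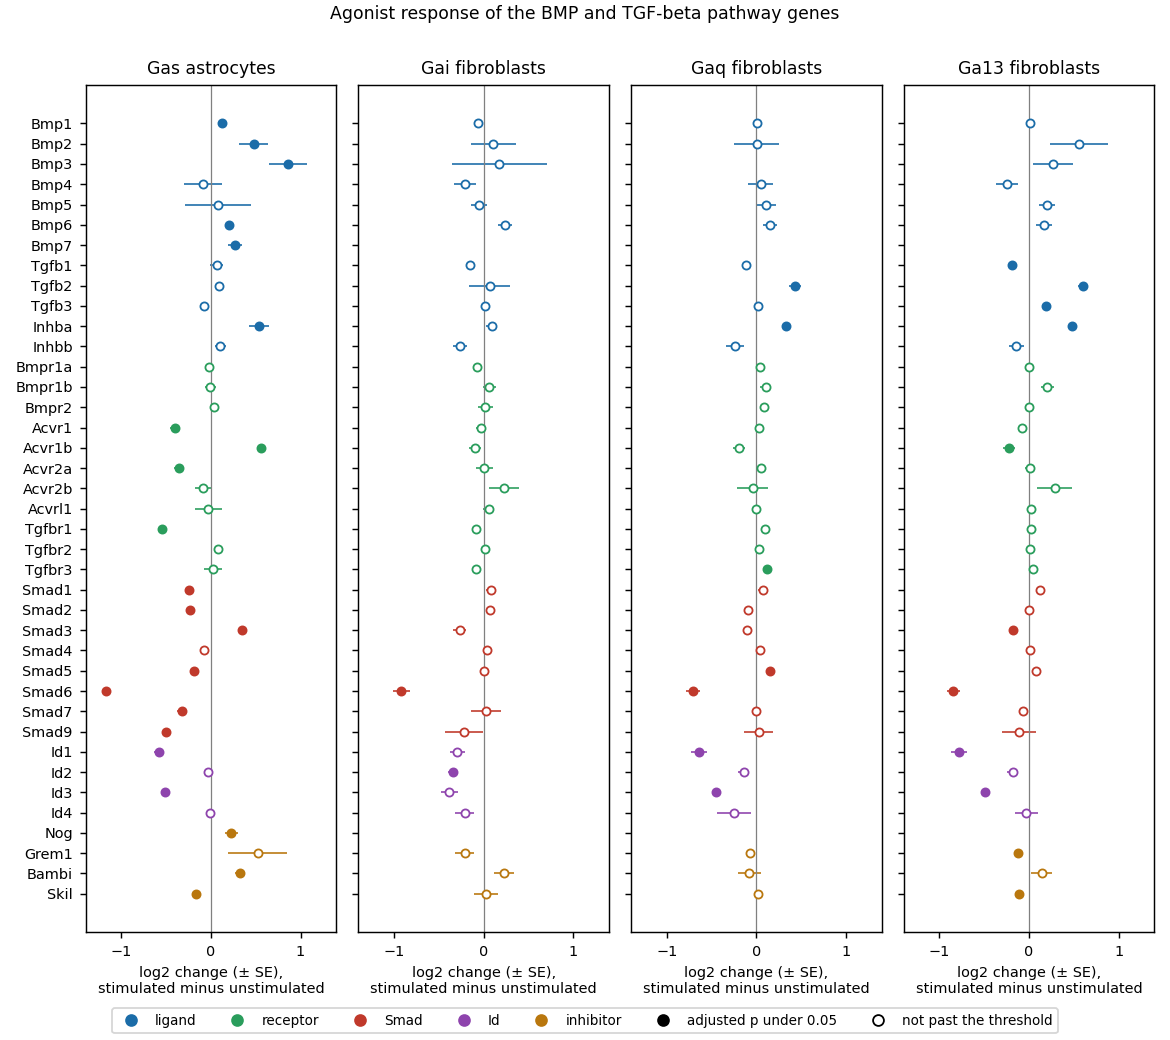
The log2 change of each member with agonist, stimulated minus unstimulated and averaged over both viruses (x axis, points, with SE as lines), is shown for 4 lines with the 39 members down the page, coloured by role; filled points passed an edgeR adjusted p under 0.05. Smad6 lies far left of 0 in all 4 panels, at -1.17, -0.92, -0.70 and -0.85, and 4 receptor points are filled in the Gas panel, none in Gai, 1 in Gaq and 1 in Ga13.

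Markers of other cell types moved with isoproterenol in the Gas line too. The 10 fibroblast markers summed to 8965 to 9804 CPM stimulated, against 8130 to 8916 CPM unstimulated, and 3 of 9 tested rose. The 10 astrocyte markers summed to 7911 to 8460 CPM stimulated, against 7440 to 7975 CPM unstimulated, and 4 of 10 rose. The 11 microglia and macrophage markers summed to 195 to 209.8 CPM stimulated, against 179 to 199 CPM unstimulated, with 3 rising and 1 falling. Neuron markers summed to 365 to 389 CPM stimulated, against 351 to 385 CPM unstimulated, and 2 of 8 rose. Of 7 oligodendrocyte markers tested 2 rose and 1 fell, and of 7 smooth muscle and pericyte markers 1 rose and 3 fell. In addition 1 lung epithelial and 1 ependymal marker rose. With TRAP-6, smooth muscle and pericyte markers summed to 4251 to 4738 CPM stimulated, against 3791 to 4346 CPM unstimulated, in Ga13 fibroblasts, where 2 of 8 rose and 1 fell. In Gaq fibroblasts they summed to 2776 to 3350 CPM stimulated, against 2688 to 2907 CPM unstimulated, and 3 of 8 rose. Astrocyte markers summed to 224 to 247 CPM stimulated, against 184 to 210.0 CPM unstimulated, in Ga13 and to 223 to 247 CPM stimulated, against 195 to 209 CPM unstimulated, in Gaq, and 1 of 7 rose in each. Oligodendrocyte lineage markers, of which Olig1, Olig2 and Mog were at 0, summed to 71.8 to 90.8 CPM stimulated, against 92.4 to 96.4 CPM unstimulated, in Ga13, where 2 of 5 fell. In each of these lines 1 endothelial marker fell, 1 mesothelial marker rose, and 1 fibroblast marker rose and 1 fell, and in Gai 1 astrocyte and 1 fibroblast marker rose. The part of these cell types in the member changes was not tested. In bulk RNA, fewer cells of a type and less RNA per cell cannot be told apart.

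Smad6, the inhibitory Smad that mainly restrains BMP receptors, had the lowest log2 change of the members tested in each line. In Gas astrocytes it stood at 35.0, 41.6 and 38.0 CPM with isoproterenol and Cre virus and at 39.6, 41.8 and 41.6 CPM with isoproterenol and empty virus, against 97.5, 81.8 and 99.7 CPM unstimulated with Cre virus and 84.0, 80.6 and 91.8 CPM unstimulated with empty virus. Every stimulated library lay below every unstimulated library, and the mean log2 change was -1.17 ± 0.051 (SE, edgeR adjusted p = 6.70e-19). In Gai fibroblasts Smad6 was at 21.0, 15.8 and 22.2 CPM with TRAP-6 and Cre virus and 16.8, 17.1 and 16.3 CPM with TRAP-6 and empty virus, against 34.6, 32.7 and 39.5 CPM unstimulated with Cre virus and 31.8, 39.5 and 27.2 CPM unstimulated with empty virus (log2 change -0.92 ± 0.10, adjusted p = 0.000108). The stimulated and unstimulated libraries were again apart. Gaq fibroblasts held 13.5, 17.4 and 14.1 CPM with TRAP-6 and Cre virus and 11.6, 13.8 and 13.4 CPM with TRAP-6 and empty virus, against 25.3, 26.7 and 20.4 CPM unstimulated with Cre virus and 22.7, 22.6 and 19.3 CPM unstimulated with empty virus (log2 change -0.70 ± 0.081, adjusted p = 1.04e-07). Ga13 fibroblasts held 13.0, 13.9 and 13.4 CPM with TRAP-6 and Cre virus and 14.4, 14.4 and 11.5 CPM with TRAP-6 and empty virus, against 24.5, 22.8 and 21.9 CPM unstimulated with Cre virus and 24.4, 28.3 and 22.7 CPM unstimulated with empty virus (log2 change -0.85 ± 0.072, adjusted p = 3.83e-11). There too no stimulated library reached the unstimulated ones. The fall passed the test with each virus on its own in all 4 lines, from -1.28 ± 0.071 with Cre virus in Gas to -0.69 ± 0.11 with Cre virus in Gaq.

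The promoter window of Smad6 is shown with those of Id3, which also fell, and of Tgfb2, which rose in Gaq and Ga13 fibroblasts. They are 300 bases each, 250 before and 50 after the RefSeq start, from the RefSeq GRCm38.p6 table, which matched 25 of the 39 members with 30 windows. Capitals mark matches on either strand to GTCTAGAC, the palindrome of the Smad-binding box, in Smad6, and to CAGAC, that box in its short form, or TGACG, the short form of the cAMP response element, in Id3 and Tgfb2.
Smad6 (chr9:64022010-64022309, minus strand): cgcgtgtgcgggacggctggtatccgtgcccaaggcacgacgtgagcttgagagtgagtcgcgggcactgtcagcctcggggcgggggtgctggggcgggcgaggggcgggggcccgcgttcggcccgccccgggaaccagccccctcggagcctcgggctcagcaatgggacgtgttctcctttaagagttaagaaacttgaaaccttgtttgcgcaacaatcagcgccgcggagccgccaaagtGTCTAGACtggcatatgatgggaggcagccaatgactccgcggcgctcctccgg
Id3 (chr4:136143572-136143871, plus strand): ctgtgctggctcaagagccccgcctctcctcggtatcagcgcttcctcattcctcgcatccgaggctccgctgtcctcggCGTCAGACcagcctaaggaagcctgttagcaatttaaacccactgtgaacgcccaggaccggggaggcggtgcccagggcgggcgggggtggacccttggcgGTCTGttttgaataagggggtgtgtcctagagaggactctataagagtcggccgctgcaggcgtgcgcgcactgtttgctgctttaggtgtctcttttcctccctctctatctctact
Tgfb2 (chr1:186705940-186706239, minus strand): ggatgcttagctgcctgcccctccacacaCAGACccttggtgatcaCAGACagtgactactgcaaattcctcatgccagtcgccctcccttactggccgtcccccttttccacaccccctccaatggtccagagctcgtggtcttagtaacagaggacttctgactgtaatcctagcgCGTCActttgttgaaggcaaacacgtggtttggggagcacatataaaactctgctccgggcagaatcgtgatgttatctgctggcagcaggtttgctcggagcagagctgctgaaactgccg
GTCTAGAC was in the Smad6 window, first base at -4 from the start, and in no other member window, while 0.213% of the 32851 windows of the table held it. CAGAC was in 12 of the 30 member windows, those of 11 members, and 49.6% of all windows, and TGACG in 6 of the 30 and 20.8% of all windows. In Id3 both overlap at -170 and -167 from the start. The full cAMP response element TGACGTCA, which contains TGACG, was in no member window and in 1.79% of all windows. GGCGCC, a GC-rich box bound by BMP-activated Smads, was in 10 of the 30 and 11.9% of all windows. Among the 10 are overlapping windows of Smad5 that hold the same site.

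Id proteins are helix-loop-helix factors that lack a DNA-binding region and hold back differentiation factors. Id1 fell in Gas, Gaq and Ga13. It was at 99.6 to 115 CPM (median 106) in the 6 stimulated libraries, against 138 to 194 CPM (median 153) in the 6 unstimulated libraries of Gas astrocytes (log2 change -0.58 ± 0.053, adjusted p = 1.24e-08). In Gaq fibroblasts it was at 8.92 to 13.0 CPM (median 10.5) stimulated, against 14.3 to 19.0 CPM (median 17.4) unstimulated (log2 change -0.64 ± 0.091, adjusted p = 5.31e-06). In Ga13 fibroblasts it was at 8.39 to 12.1 CPM (median 11.2) stimulated, against 15.7 to 20.6 CPM (median 18.5) unstimulated (log2 change -0.78 ± 0.086, adjusted p = 1.90e-08). In these 3 lines the 6 stimulated libraries lay below the 6 unstimulated ones. In Gai fibroblasts Id1 was at 19.9 to 26.4 CPM (median 21.9) stimulated, against 23.3 to 30.7 CPM (median 27.2) unstimulated, the libraries overlapped, and the log2 change of -0.29 ± 0.082 did not pass (edgeR adjusted p = 0.115, 0.0204 with the replicate block).

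Id3 fell in the same 3 lines. With agonist it was at 211 to 244 CPM (median 220.4) in the 6 stimulated libraries, against 295 to 351 CPM (median 313) in the 6 unstimulated libraries of Gas astrocytes (log2 change -0.51 ± 0.039, adjusted p = 3.39e-13). Gaq fibroblasts held 60.8 to 81.3 CPM (median 69.3) stimulated, against 90.3 to 105 CPM (median 97.0) unstimulated (log2 change -0.45 ± 0.043, adjusted p = 1.65e-09). Ga13 fibroblasts held 66.9 to 80.2 CPM (median 68.3) stimulated, against 93.7 to 104 CPM (median 98.6) unstimulated (log2 change -0.50 ± 0.040, adjusted p = 9.19e-12). Stimulated and unstimulated libraries did not overlap in these lines. In Gai fibroblasts Id3 was at 88.0 to 111 CPM (median 99.3) stimulated, against 107 to 151 CPM (median 139) unstimulated, with overlap. Its log2 change there was -0.38 ± 0.10 (edgeR adjusted p = 0.121, 1.13e-06 with the replicate block). Id2 fell in Gai fibroblasts, where it was at 31.4 to 36.9 CPM (median 33.8) stimulated, against 40.2 to 46.5 CPM (median 42.4) unstimulated, with no overlap (log2 change -0.34 ± 0.056, adjusted p = 0.00417). Elsewhere Id2 had log2 changes of -0.029 ± 0.037 in Gas, -0.14 ± 0.063 in Gaq and -0.18 ± 0.061 in Ga13, none past the threshold (adjusted p = 0.0631 in Ga13, where the libraries did not overlap). Id4 did not pass in any line, with log2 changes from -0.25 in Gaq to -0.014 in Gas.

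**Figure D2:**
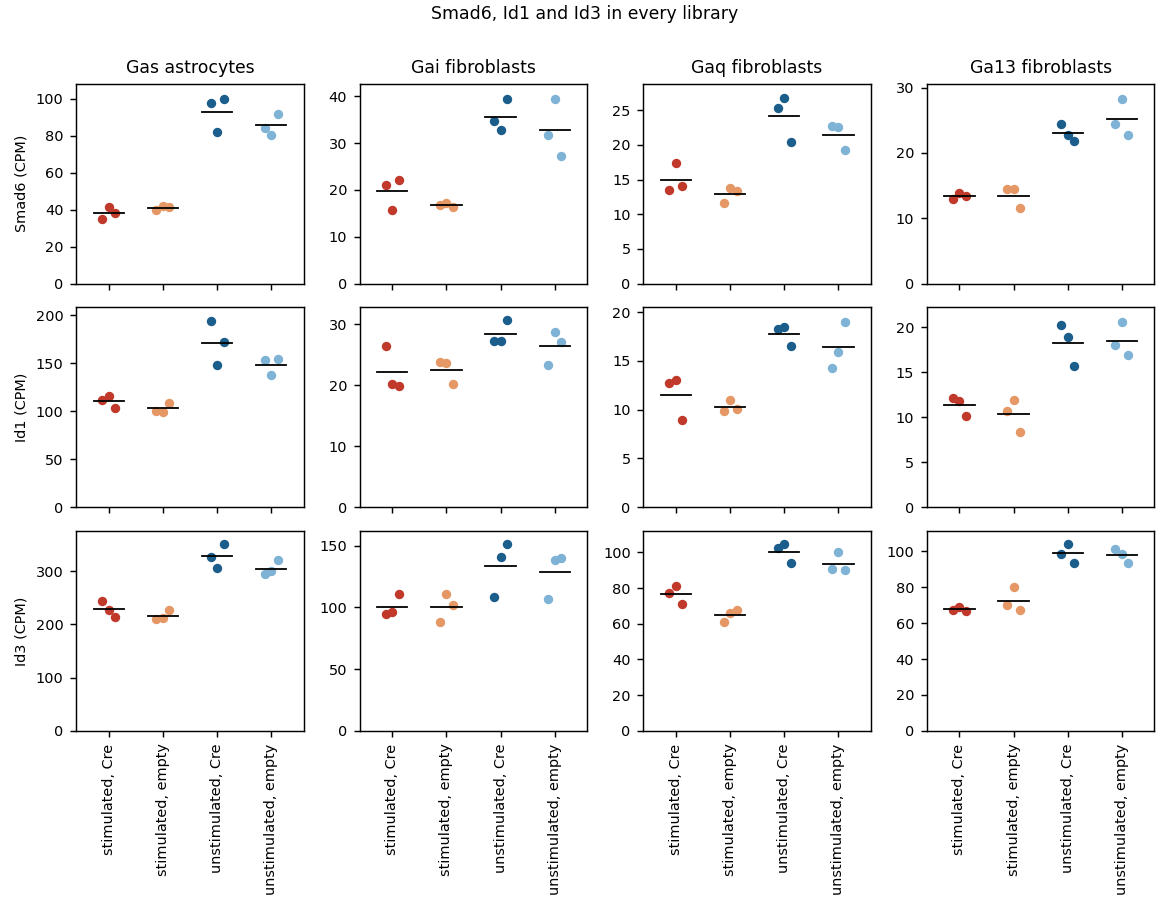
CPM of Smad6, Id1 and Id3 (y axes from 0) is shown in each of the 48 libraries by line and group; points are libraries and bars are means of 3. For Smad6 the red and orange stimulated points lie below the blue unstimulated points in all 4 lines, at 11.5 to 41.8 CPM over the stimulated libraries of all lines.

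In isoproterenol-treated Gas astrocytes 7 of 8 Smads changed, 1 rising and 6 falling, where 11.7% of all genes rose and 11.5% fell. Smad3, the DNA-binding TGF-beta and activin Smad, was the 1 that rose, at 92.3 to 104 CPM (median 96.6) in the 6 stimulated libraries, against 70.6 to 82.9 CPM (median 74.7) in the 6 unstimulated libraries, with no overlap (log2 change 0.35 ± 0.042, adjusted p = 2.05e-08). Smad9, a BMP Smad, was at 29.1 to 31.2 CPM (median 30.2) in the 6 stimulated libraries, against 40.3 to 44.4 CPM (median 43.3) in the 6 unstimulated libraries and also apart (log2 change -0.50 ± 0.046, adjusted p = 5.26e-11). Smad7, the inhibitory Smad that restrains TGF-beta and BMP receptors alike, was at 37.6 to 49.0 CPM (median 45.0) in the 6 stimulated libraries, against 51.6 to 60.0 CPM (median 56.1) in the 6 unstimulated libraries, likewise apart (log2 change -0.33 ± 0.049, adjusted p = 1.44e-06). The receptor-activated Smad1, Smad2 and Smad5 fell by smaller steps, with log2 changes of -0.25 ± 0.045, -0.24 ± 0.041 and -0.19 ± 0.037, and the 6 stimulated libraries lay below the 6 unstimulated ones for each. Smad4, the shared partner, had a log2 change of -0.079 ± 0.037, which did not pass (edgeR adjusted p = 0.128).

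In fibroblasts Smad3 fell in Ga13, where it was at 125 to 144 CPM (median 136) stimulated, against 144 to 157 CPM (median 155) unstimulated, ranges that overlap (log2 change -0.17 ± 0.032, adjusted p = 0.000176). In Gai its log2 change was -0.27 ± 0.075 (edgeR adjusted p = 0.136, 3.85e-06 with the replicate block), and in Gaq it was -0.10 ± 0.038 (adjusted p = 0.133). Smad3 thus rose with isoproterenol in astrocytes and fell with TRAP-6 in Ga13 fibroblasts. The difference was not tested, since cell type, line and agonist change together. Smad5 rose in Gaq, with a log2 change of 0.15 ± 0.044 (SE, edgeR adjusted p = 0.0432), a call lost without any 1 of 8 libraries (stimulated Cre virus replicate 1, stimulated empty virus replicates 1 and 2, unstimulated Cre virus replicates 1, 2 and 3 or unstimulated empty virus replicates 1 and 2, with an adjusted p of 0.0728 to 0.177) and with DESeq2 (adjusted p = 0.0627). Smad1, Smad2, Smad4, Smad7 and Smad9 passed in no fibroblast line.

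Among the receptors 4 of 11 changed in Gas astrocytes, 1 rising and 3 falling, where 11.7% of all genes rose and 11.5% fell. Acvr1b, the activin type I receptor ALK4, rose and was at 54.6 to 61.6 CPM (median 58.3) in the 6 stimulated libraries, against 33.2 to 45.3 CPM (median 39.9) in the 6 unstimulated libraries (log2 change 0.56 ± 0.054, adjusted p = 4.04e-10). Tgfbr1, the TGF-beta type I receptor ALK5, fell and was at 32.2 to 37.4 CPM (median 35.1) in the 6 stimulated libraries, against 48.7 to 55.3 CPM (median 50.1) in the 6 unstimulated libraries (log2 change -0.55 ± 0.048, adjusted p = 1.08e-11). Both stood clear of overlap, in opposite directions. Acvr1, the BMP type I receptor ALK2, was at 32.3 to 35.3 CPM (median 34.6) in the 6 stimulated libraries, against 40.6 to 50.4 CPM (median 45.2) in the 6 unstimulated libraries (log2 change -0.40 ± 0.049, adjusted p = 3.36e-08). Acvr2a, a type II receptor shared by activins and BMPs, was at 17.7 to 19.7 CPM (median 18.7) in the 6 stimulated libraries, against 22.0 to 25.3 CPM (median 24.1) in the 6 unstimulated libraries (log2 change -0.36 ± 0.058, adjusted p = 7.52e-06). Neither overlapped. The other 7 receptors had log2 changes from -0.087 for Acvr2b to 0.073 for Tgfbr2, and none passed.

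In the fibroblast lines none of 11 receptors passed in Gai, 1 in Gaq and 1 in Ga13, where 1.12%, 5.61% and 8.38% of all genes were called. Acvr1b fell in Ga13, where it was at 16.7 to 20.9 CPM (median 18.5) stimulated, against 20.4 to 23.0 CPM (median 21.5) unstimulated (log2 change -0.22 ± 0.064, adjusted p = 0.0216). The ranges overlap, and the call was lost when any 1 of 4 libraries was left out: unstimulated Cre virus replicate 1 (adjusted p = 0.0698), stimulated Cre virus replicate 2 (0.0684), unstimulated empty virus replicate 3 (0.0564) or stimulated empty virus replicate 3 (0.0730). Tgfbr3, the co-receptor betaglycan, rose in Gaq, with a log2 change of 0.12 ± 0.037 (SE, edgeR adjusted p = 0.0491), a call lost without any 1 of 9 libraries (stimulated Cre virus replicates 1 and 2, stimulated empty virus replicates 1, 2 and 3, unstimulated Cre virus replicates 1 and 3 or unstimulated empty virus replicates 2 and 3, with an adjusted p of 0.0503 to 0.164) and with DESeq2 (adjusted p = 0.0544). Tgfbr2, the TGF-beta type II receptor, had log2 responses of 0.018 ± 0.034 in Gai, 0.034 ± 0.032 in Gaq and 0.012 ± 0.025 in Ga13, none past the threshold. Bmpr1a and Bmpr1b, BMP type I receptors, and Bmpr2, the BMP type II receptor, passed in no line, Gas included. Their log2 changes over the 4 lines were -0.069 to 0.044 for Bmpr1a, -0.0061 to 0.21 for Bmpr1b and 0.0032 to 0.081 for Bmpr2.

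Ligand genes gave 11 calls upward and 1 downward over the 4 lines, where the share of all genes called ran from 1.12% in Gai to 23.3% in Gas. Of 12 in Gas astrocytes 6 rose and none fell, where 11.7% of all genes rose and 11.5% fell. Bmp3, a ligand that opposes other BMPs, was at 1.03 to 2.93 CPM (median 2.05) in the 6 stimulated libraries, against 0.744 to 1.32 CPM (median 1.09) in the 6 unstimulated libraries, low values that overlap (log2 change 0.86 ± 0.21, adjusted p = 0.00221). Inhba, which encodes the subunit of activin A, was at 20.8 to 31.5 CPM (median 28.5) in the 6 stimulated libraries, against 14.5 to 23.9 CPM (median 18.5) in the 6 unstimulated libraries, with overlap (log2 change 0.54 ± 0.11, adjusted p = 0.00266). Bmp6 was at 128 to 139 CPM (median 133) in the 6 stimulated libraries, against 112 to 123 CPM (median 115) in the 6 unstimulated libraries, with no overlap (log2 change 0.20 ± 0.036, adjusted p = 3.41e-05). Bmp7, a BMP ligand, was at 9.14 to 12.8 CPM (median 11.2) stimulated, against 8.24 to 10.9 CPM (median 8.84) unstimulated, with overlap (log2 change 0.27 ± 0.080, adjusted p = 0.0112), and the ligand-processing protease gene Bmp1 had a log2 change of 0.12 ± 0.035, adjusted p = 0.00922. Bmp2 was at 2.07 to 4.12 CPM (median 3.30) stimulated, against 1.80 to 3.02 CPM (median 2.31) unstimulated, with overlap (log2 change 0.48 ± 0.16, adjusted p = 0.0277). The Bmp2 call was lost with DESeq2 (adjusted p = 0.0521) or without any 1 of 5 libraries (stimulated Cre virus replicate 2, stimulated empty virus replicate 2, unstimulated Cre virus replicates 1 and 2 or unstimulated empty virus replicate 1, with an adjusted p of 0.0550 to 0.169). The other 6 ligands had log2 changes from -0.087 for Bmp4 to 0.11 for Inhbb, none past the threshold.

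In fibroblasts the ligand genes that rose were Tgfb2, Tgfb3 and Inhba, all of the TGF-beta and activin branch. Tgfb2 rose in Ga13 fibroblasts, where it was at 36.4 to 45.1 CPM (median 39.9) in the 6 stimulated libraries, against 24.7 to 28.8 CPM (median 26.5) in the 6 unstimulated libraries, with no overlap (log2 change 0.60 ± 0.053, adjusted p = 9.36e-11). In Gaq it was at 21.2 to 34.1 CPM (median 24.9) stimulated, against 15 to 21.5 CPM (median 19.6) unstimulated, with overlap across the 2 viruses (log2 change 0.43 ± 0.070, adjusted p = 4.50e-05). In Gai its log2 change was 0.066 ± 0.23, on values that spread from 19.5 to 43.2 CPM stimulated and from 21.0 to 36.8 CPM unstimulated, highest in replicate 1 of each group. The Gai value turned negative when any 1 of 4 libraries was left out, and it was not past the threshold with or without them. Tgfb3 rose in Ga13, where it was at 315 to 351 CPM (median 327) stimulated, against 280.2 to 299 CPM (median 288) unstimulated, apart (log2 change 0.19 ± 0.028, adjusted p = 9.85e-06). Tgfb1 fell in the same line, where it was at 119 to 136 CPM (median 126) stimulated, against 124 to 151 CPM (median 149) unstimulated, with overlap (log2 change -0.19 ± 0.038, adjusted p = 0.000652). Elsewhere the Tgfb1 log2 change was -0.11 ± 0.037 in Gaq (edgeR adjusted p = 0.0764) and -0.15 ± 0.041 in Gai (adjusted p = 0.105, 0.00787 with the replicate block).

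Inhba rose in Gaq and Ga13 fibroblasts. In Ga13 it was at 2150.0, 2411 and 2059.6 CPM with TRAP-6 and Cre virus and 1791, 1947 and 1894 CPM with TRAP-6 and empty virus, against 1318, 1423 and 1341 CPM unstimulated with Cre virus and 1537, 1519.7 and 1591 CPM unstimulated with empty virus. All 6 stimulated libraries were above all 6 unstimulated ones (log2 change 0.48 ± 0.034, adjusted p = 8.49e-09). In Gaq it was at 1693, 1758 and 1588 CPM with TRAP-6 and Cre virus and 1664, 1818 and 1544 CPM with TRAP-6 and empty virus, against 1153, 1264 and 1122 CPM unstimulated with Cre virus and 1608, 1492 and 1438 CPM unstimulated with empty virus. The mean log2 change was 0.33 ± 0.042 (SE, edgeR adjusted p = 2.70e-05), and the ranges of the states overlapped through the empty virus libraries. In Gai the libraries overlapped, at 2559 to 3146 CPM (median 2674) stimulated, against 2411 to 2725 CPM (median 2646) unstimulated, and the log2 change of 0.088 ± 0.059 did not pass (edgeR adjusted p = 0.730). Inhbb, the subunit of activin B, had log2 values of -0.26 ± 0.080 in Gai (adjusted p = 0.168, 0.0493 with the replicate block), -0.24 ± 0.11 in Gaq and -0.14 ± 0.084 in Ga13, none past the threshold without the block.

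**Figure D3:**
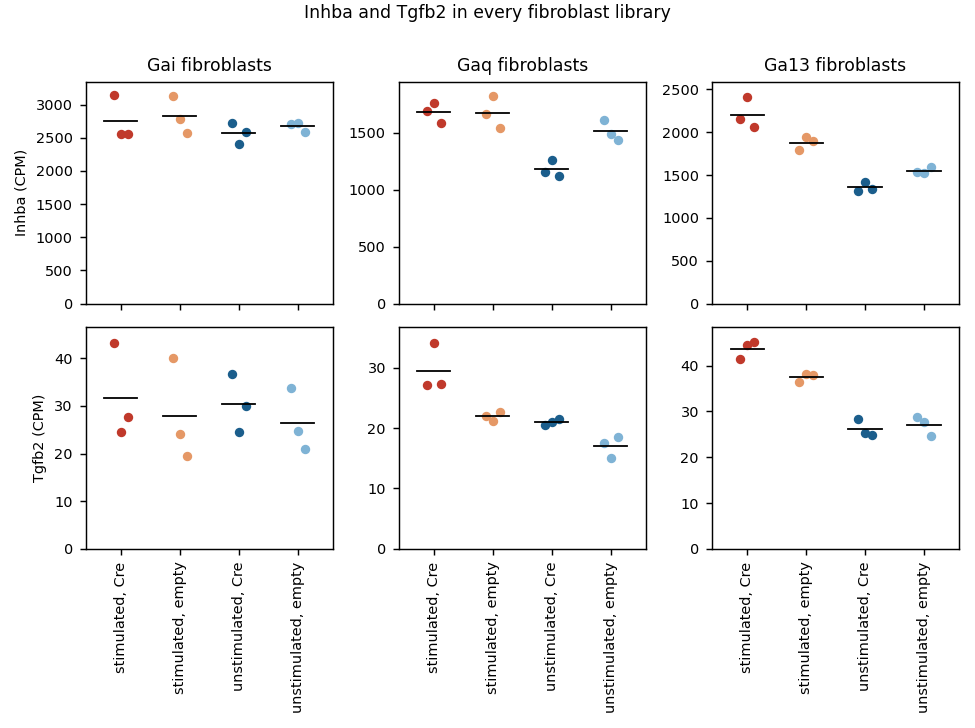
CPM of Inhba and Tgfb2 (y axes from 0) is shown in each of the 36 fibroblast libraries by line and group; points are libraries and bars are means of 3. In Ga13 all red and orange stimulated points lie above the blue unstimulated points for both genes, and the unstimulated Cre virus points of Inhba lie below those of empty virus in Gaq and Ga13.

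The BMP ligands and Bmp1, the ligand-processing protease gene, did not pass in any fibroblast line. Bmp1, Bmp2, Bmp4, Bmp5 and Bmp6 were tested in all 3 lines and Bmp3 in Gai and Ga13, while Bmp7 was at 0 to 0.263 CPM. Bmp6 had log2 changes of 0.24 ± 0.078 in Gai, 0.15 ± 0.082 in Gaq and 0.17 ± 0.093 in Ga13, each positive and none past the threshold. Bmp4 was at 2.53 to 7.06 CPM over the fibroblast libraries and had log2 changes of -0.21 ± 0.13 in Gai, 0.050 ± 0.14 in Gaq and -0.25 ± 0.12 in Ga13.

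Of the 4 inhibitors Bambi, a decoy receptor without a kinase, rose in Gas astrocytes, where it was at 32.1 to 36.1 CPM (median 35.0) in the 6 stimulated libraries, against 23.3 to 30.5 CPM (median 28.2) in the 6 unstimulated libraries, with no overlap (log2 change 0.32 ± 0.056, adjusted p = 2.12e-05). Nog, which encodes the secreted BMP trap noggin, rose in Gas, with a log2 change of 0.23 ± 0.073 (SE, edgeR adjusted p = 0.0384), a call lost without any 1 of 8 libraries (stimulated Cre virus replicates 1, 2 and 3, stimulated empty virus replicates 1 and 3, unstimulated Cre virus replicate 3 or unstimulated empty virus replicates 1 and 2, with an adjusted p of 0.0505 to 0.0980). Skil, which encodes the Smad co-repressor SnoN, fell in Gas, with a log2 change of -0.16 ± 0.036 (SE, edgeR adjusted p = 0.000545), with no overlap, and in Ga13, with a log2 change of -0.11 ± 0.027 (SE, edgeR adjusted p = 0.00647), where the ranges of the 2 states overlap. Grem1, the secreted BMP antagonist gremlin 1, fell in Ga13, with a log2 change of -0.12 ± 0.036 (SE, edgeR adjusted p = 0.0381), a call lost without any 1 of 8 libraries (stimulated Cre virus replicates 1, 2 and 3, stimulated empty virus replicates 1 and 2, unstimulated Cre virus replicates 2 and 3 or unstimulated empty virus replicate 3, with an adjusted p of 0.0626 to 0.128). In Gai its log2 change was -0.21 ± 0.11 (adjusted p = 0.585, 0.000132 with the replicate block). Nog was below the filter in Gai, with 6 counts summed over the stimulated Cre virus group and 4 over the stimulated empty virus group, against 17 over the unstimulated Cre virus group and 18 over the unstimulated empty virus group; this was not tested. Bambi passed in no fibroblast line, with log2 changes of 0.23 ± 0.11 in Gai, -0.080 ± 0.13 in Gaq and 0.14 ± 0.12 in Ga13.

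Cre virus, which turns the biosensor on, was compared with empty virus within each line, and edgeR called members in Gaq fibroblasts. Effects of Cre and of the biosensor cannot be told apart in this design. Without agonist 1 of 36 Gaq members rose and 3 fell, where 1.28% of all genes rose and 1.37% fell. With TRAP-6 4 members rose and 2 fell, where 1.99% of all genes rose and 1.42% fell. Tgfb1 and Grem1 were lower and Tgfbr2 higher with Cre virus in both states.

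Tgfb1 was at 129, 133 and 132 CPM with TRAP-6 and Cre virus, against 172, 172 and 159.6 CPM with TRAP-6 and empty virus (log2 difference -0.36 ± 0.053, adjusted p = 4.00e-05). Unstimulated it was at 149, 149 and 139 CPM with Cre virus, against 173, 195 and 166 CPM with empty virus (log2 difference -0.29 ± 0.053, adjusted p = 0.000749). The viruses did not overlap in either state. Grem1 was at 498, 497 and 539.9 CPM with TRAP-6 and Cre virus, against 639.5, 671 and 643 CPM with TRAP-6 and empty virus (log2 difference -0.35 ± 0.042, adjusted p = 1.03e-06). Unstimulated it was at 546, 531 and 545 CPM with Cre virus, against 702, 662 and 679 CPM with empty virus (log2 difference -0.33 ± 0.042, adjusted p = 2.55e-06). Again neither state overlapped.

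Tgfbr2 was at 333, 334 and 313 CPM with TRAP-6 and Cre virus, against 289.9, 300.05 and 281 CPM with TRAP-6 and empty virus (log2 difference 0.17 ± 0.045, adjusted p = 0.0284). Unstimulated it was at 341, 324 and 309 CPM with Cre virus, against 276, 277 and 287 CPM with empty virus (log2 difference 0.21 ± 0.045, adjusted p = 0.00340). The Cre virus libraries were the higher ones throughout. The stimulated call was lost without any 1 of 4 libraries (stimulated Cre virus replicates 1 and 2 or stimulated empty virus replicates 1 and 3, with an adjusted p of 0.112 to 0.146), and the unstimulated call without unstimulated Cre virus replicate 1 (adjusted p = 0.0579).

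Inhba was lower with Cre virus in unstimulated Gaq cells, with a log2 difference of -0.36 ± 0.059 (SE, edgeR adjusted p = 0.00155), on the values given above. In stimulated Gaq cells 3 further members were higher with Cre virus. Tgfb2 was at 27.1, 34.1 and 27.3 CPM with Cre virus, against 22.1, 21.2 and 22.8 CPM with empty virus (log2 difference 0.42 ± 0.10, adjusted p = 0.00854). That call was lost without stimulated empty virus replicate 2 (adjusted p = 0.0563) or stimulated Cre virus replicate 2 (0.152). Tgfbr3 was at 139.9, 138 and 131 CPM with Cre virus, against 116, 121 and 121 CPM with empty virus (log2 difference 0.19 ± 0.053, adjusted p = 0.0374). Id3 was at 77.3, 81.3 and 71.0 CPM with Cre virus, against 60.8, 66.1 and 67.6 CPM with empty virus (log2 difference 0.24 ± 0.062, adjusted p = 0.0237). No library overlapped for these 3 genes. The Tgfbr3 call was lost without any 1 of 5 libraries (stimulated Cre virus replicates 1 and 2 or stimulated empty virus replicates 1, 2 and 3, with an adjusted p of 0.0733 to 0.194). The Id3 call was lost without any 1 of 4 libraries (stimulated Cre virus replicates 1 and 2 or stimulated empty virus replicates 1 and 2, with an adjusted p of 0.0581 to 0.195).

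**Figure D4:**
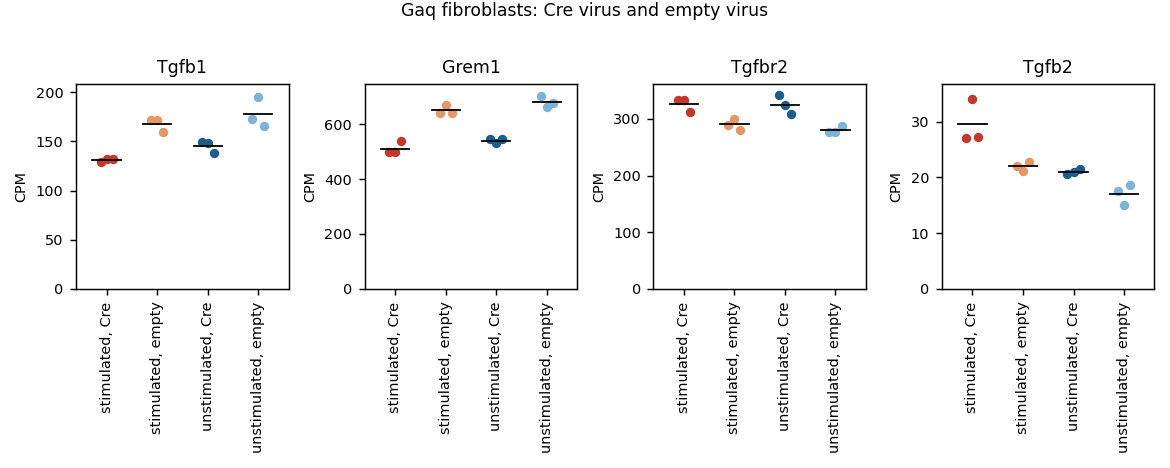
CPM of Tgfb1, Grem1, Tgfbr2 and Tgfb2 (y axes from 0) is shown in the 12 Gaq fibroblast libraries by group; points are libraries and bars are means of 3. With Cre virus, Tgfb1 and Grem1 points lie below those of empty virus in the same state, and Tgfbr2 and Tgfb2 points lie above them.

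Markers of several cell types moved with Cre virus in the same Gaq libraries. The 10 fibroblast markers summed to 63566 to 71071 CPM with TRAP-6 and Cre virus, against 56755 to 59600 CPM with TRAP-6 and empty virus, and 5 of the 10 rose. Unstimulated they summed to 61731 to 67212 CPM with Cre virus, against 55183 to 57806 CPM with empty virus, and 3 rose. The 5 mesothelial markers summed to 556 to 599 CPM with TRAP-6 and Cre virus, against 408 to 498 CPM with TRAP-6 and empty virus. Unstimulated they summed to 491 to 550.2 CPM with Cre virus, against 380 to 471 CPM with empty virus, and 1 of the 5 rose in each state. Smooth muscle and pericyte markers summed to 2901 to 3350 CPM with TRAP-6 and Cre virus, against 2776 to 2863 CPM with TRAP-6 and empty virus, with 2 of 8 rising and 1 falling, and 1 fell unstimulated. Oligodendrocyte lineage markers, with Olig1, Olig2 and Mog at 0, summed to 72.0 to 79.4 CPM with TRAP-6 and Cre virus, against 85.8 to 93.1 CPM with TRAP-6 and empty virus, and 1 of 5 fell in each state. Lung epithelial markers summed to 15.5 to 19.96 CPM with TRAP-6 and Cre virus, against 12.7 to 13.98 CPM with TRAP-6 and empty virus, and 1 of 2 tested rose. Of astrocyte markers 1 rose in each state and 1 fell unstimulated, and 1 microglia and macrophage marker rose with TRAP-6. Their part in the Gaq member differences was not tested.

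In the other lines edgeR called no member for Cre against empty virus. In Gas the unadjusted p was under 0.05 for 1 member without agonist and 2 with isoproterenol, and DESeq2 called none; 0.00552% and 0.0166% of all genes were called. In Gai it was under 0.05 for 0 and 1 members, DESeq2 called none, and 0% of all genes were called in either state. In Ga13 it was under 0.05 for 4 and 6 members, DESeq2 called 0 and 1, and 0.00632% and 0.0379% of all genes were called. Whether the Gaq differences stand apart from the other fibroblast lines was tested in a joint fit of the 36 fibroblast libraries, a comparison added after the data were seen. The Cre effect, averaged over both states, differed between Gaq and Gai, with log2 differences (Gaq minus Gai) of -0.32 ± 0.058 (SE, edgeR adjusted p = 0.00261) for Tgfb1 and 0.22 ± 0.041 (SE, edgeR adjusted p = 0.00347) for Tgfbr2, where 0.585% of all genes were called. Against Ga13 the differences were -0.23 ± 0.057 (SE, edgeR adjusted p = 0.0472) for Tgfb1 and 0.21 ± 0.041 (SE, edgeR adjusted p = 0.00423) for Tgfbr2, where 0.609% of all genes were called. The Tgfb1 difference from Ga13 was lost when any 1 of 23 of the 36 libraries was left out (adjusted p up to 0.147). For Grem1 the same 2 differences were -0.30 ± 0.10 (SE, edgeR adjusted p = 0.273) and -0.35 ± 0.10 (SE, edgeR adjusted p = 0.139). With the replicate block the Grem1 difference from Gai was -0.31 ± 0.043 (SE, edgeR adjusted p = 1.74e-06), where 2.86% of all genes were called. Inhba, Tgfb2, Tgfbr3 and Id3, each called in 1 Gaq state, passed neither difference without the block. Their edgeR adjusted p was 0.724 to 0.922 against Gai and 0.329 to 0.786 against Ga13. With the block Inhba (0.0413) and Id3 (0.0151) passed against Ga13. Grem1 passed there too, at -0.35 ± 0.042 (SE, edgeR adjusted p = 1.06e-07). The share of all genes called with the block was not computed for Gaq against Ga13. In both of these lines the replicate numbers fell short of the minimum correlation set for pairing. In stimulated Ga13 the Cre virus libraries also lay above the empty virus ones for Tgfb2, at 41.5 to 45.1 against 36.4 to 38.2 CPM. The same held for Tgfbr3, at 110 to 112 against 97.6 to 100.1 CPM.

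The response itself differed between viruses for 1 member. In Ga13 fibroblasts the Inhba response was 0.69 ± 0.049 with Cre virus and 0.27 ± 0.049 with empty virus, a difference of 0.42 ± 0.069 (SE, edgeR adjusted p = 0.0300), where 0.0821% of all genes were called. The unstimulated Cre virus libraries were the lowest Inhba libraries of the line and the stimulated Cre virus libraries the highest. The call was lost when any 1 of 5 libraries was left out: unstimulated empty virus replicate 1 (adjusted p = 0.0718) or 3 (0.0895), unstimulated Cre virus replicate 1 (0.0563), stimulated Cre virus replicate 1 (0.0564) or stimulated empty virus replicate 3 (0.0575). In Gaq the Inhba difference was 0.36 ± 0.084 and did not pass (edgeR adjusted p = 0.179). There edgeR called no member, 4 had an unadjusted p under 0.05, DESeq2 called 1, and 0.161% of all genes were called. In Gas and Gai no member was called by edgeR or DESeq2, 3 and 0 members had an unadjusted p under 0.05, and 0% of all genes were called.

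Between the fibroblast lines the TRAP-6 response of 1 member differed without the replicate block, and of more members with it. For Inhba the response was smaller in Gai than in Ga13, with a log2 difference (Gai minus Ga13) of -0.39 ± 0.078 (SE, edgeR adjusted p = 0.0160), a comparison in which 0.316% of all genes were called. With the replicate number as a block within each line it was -0.40 ± 0.054 (SE, edgeR adjusted p = 0.000146). The block also called Tgfb2, at -0.56 ± 0.10 (SE, edgeR adjusted p = 0.000270), Id1, at 0.48 ± 0.11 (SE, edgeR adjusted p = 0.0102), and Skil, at 0.14 ± 0.038 (SE, edgeR adjusted p = 0.0268), where 1.72% of all genes were called. No member was called by edgeR or DESeq2 between Gai and Gaq, where 9 members had an unadjusted p under 0.05 and 0.137% of all genes were called. With the block 3 were called and 0.961% of all genes: Inhba at -0.25 ± 0.054 (SE, edgeR adjusted p = 0.0309), Tgfbr3 at -0.20 ± 0.049 (SE, edgeR adjusted p = 0.0214) and Smad3 at -0.17 ± 0.043 (SE, edgeR adjusted p = 0.0398). The replicate numbers were taken as paired in Gai, and in Gaq and Ga13 they fell short of the minimum correlation set for pairing. Between Gaq and Ga13 neither tool called a member, 1 had an unadjusted p under 0.05, and 0% of all genes were called. For Smad6 the differences were -0.21 ± 0.13 (SE, edgeR adjusted p = 0.976) for Gai minus Gaq and -0.069 ± 0.12 (SE, edgeR adjusted p = 0.954) for Gai minus Ga13.

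Further genes of the pathway were grouped in 5 lists, whose counts and medians stand beside the percentages and medians of all genes given for each line above. The lists were fitted without the replicate block, so their Gai counts leave the pairing out. Over all Gai genes the block raised the share rising from 0.732% to 2.89% and the share falling from 0.388% to 2.1%. Among 25 intracellular regulators 6 rose and 10 fell in Gas astrocytes (median log2 change -0.022). Tob1, which restrains BMP Smads, was at 209.9 ± 8.61 CPM stimulated and 83.2 ± 3.18 CPM unstimulated, a log2 change of 1.33 ± 0.039. Tgif1, a co-repressor of TGF-beta Smads, was at 23.3 ± 0.962 CPM stimulated and 43.6 ± 4.43 CPM unstimulated, a log2 change of -0.91 ± 0.056. Ppp1r15a, a phosphatase subunit that Smad7 can bring to the TGF-beta receptor, rose, with a log2 change of 1.30 ± 0.040, and Zfyve9, the Smad anchor SARA, rose with a change of 0.56 ± 0.048. In fibroblasts 0 of 25 passed in Gai, where 7 had an unadjusted p under 0.05 and DESeq2 called 0. In Gaq Usp9x, a deubiquitinase of Smad4, rose, with a log2 change of 0.18 ± 0.034, and Trim33, a ubiquitin ligase of Smad4, fell, with a log2 change of -0.18 ± 0.051. In Ga13 Ppp1r15a rose, with a log2 change of 0.32 ± 0.041, and Trim33 fell, with a log2 change of -0.23 ± 0.045.

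Of 25 genes known to be induced by TGF-beta, 7 rose and 6 fell in Gas (median log2 change 0.0035). Il11, an interleukin, was at 45.4 ± 7.61 CPM stimulated and 3.52 ± 0.853 CPM unstimulated, a log2 change of 3.67 ± 0.16, and Junb, an AP-1 subunit, at 245 ± 18.8 CPM stimulated and 73.6 ± 5.47 CPM unstimulated, a log2 change of 1.73 ± 0.045. Klf10, the TGF-beta inducible early gene, fell there and was at 92.9 ± 7.36 CPM stimulated and 251 ± 15.3 CPM unstimulated, a log2 change of -1.44 ± 0.048. Hbegf, a ligand of the EGF receptor, fell, with a log2 change of -1.36 ± 0.044. Klf10 also fell in the fibroblasts, with log2 changes of -0.29 ± 0.060 in Gai, -0.43 ± 0.061 in Gaq and -0.45 ± 0.043 in Ga13, each past the edgeR threshold. In Gaq 4 of 24 rose and 3 fell (median 0.039), in Ga13 5 of 25 rose and 3 fell (median 0.035), and in Gai only Klf10 of 25 passed (median -0.018). Of this list 4 genes in Gai had an unadjusted p under 0.05, and DESeq2 called 1. Ccn2, the matricellular growth factor CTGF, rose with log2 changes of 0.18 ± 0.026 (Gaq) and 0.21 ± 0.023 (Ga13). Snai1, a repressor of epithelial genes, fell, with log2 changes of -0.67 ± 0.080 in Gaq and -0.85 ± 0.056 in Ga13. The list thus held calls in both directions in these lines.

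Of genes known to be induced by BMP, 5 rose and 4 fell of 14 tested in Gas (median log2 change 0.29). Gata2, a transcription factor of blood and vessel development, was at 31.1 ± 2.35 CPM stimulated and 13.9 ± 1.5 CPM unstimulated, a log2 change of 1.16 ± 0.066. Atoh8, Hes1 and Msx2, transcription factors, fell, with log2 changes of -0.49 ± 0.044, -0.60 ± 0.057 and -0.64 ± 0.061. In Gaq 1 rose and 3 fell of 11 (median -0.11), in Ga13 1 rose and 3 fell of 12 (median -0.18), and in Gai 1 of 12 rose (median -0.23). Of this list 3 genes in Gai had an unadjusted p under 0.05, and DESeq2 called 3. Hes1 was at 11.5 ± 0.619 CPM stimulated and 23.3 ± 1.63 CPM unstimulated, a log2 change of -1.02 ± 0.070 in Ga13, and fell, with a log2 change of -0.73 ± 0.083 in Gaq. Atoh8 and Gata2 fell in the same lines, with log2 changes for Atoh8 of -0.62 ± 0.17 in Gaq and -0.63 ± 0.14 in Ga13, and for Gata2 of -0.50 ± 0.11 in Gaq and -0.40 ± 0.081 in Ga13. Samd11, a nuclear protein gene, rose, with log2 changes of 0.70 ± 0.12 in Gai, 0.68 ± 0.16 in Gaq and 0.88 ± 0.22 in Ga13. Gata2 rose in isoproterenol-treated astrocytes and fell in TRAP-6-treated Gaq and Ga13 fibroblasts, a difference that was not tested.

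Among extracellular antagonists and latency proteins 5 of 25 rose and 1 fell in Gas (median log2 change 0.091). Thbs1, thrombospondin 1, which can release TGF-beta from its latent form, was at 1976 ± 147 CPM stimulated and 934 ± 78.4 CPM unstimulated, a log2 change of 1.08 ± 0.048. Ltbp4, a latent TGF-beta binding protein, Crim1, a BMP-binding membrane protein, and Nbl1, the BMP antagonist DAN, rose, with log2 changes of 0.20 ± 0.054, 0.13 ± 0.038 and 0.12 ± 0.037. Of 24 tested, 4 rose in Gaq (median 0.035) and 7 in Ga13 (median 0.022), and none fell there. Thbs1 rose, with log2 changes of 0.17 ± 0.024 in Gaq and 0.13 ± 0.019 in Ga13. The activin trap follistatin, Fst, rose with log2 changes of 0.21 ± 0.053 (Gaq) and 0.25 ± 0.042 (Ga13). Itgav, an integrin subunit that activates latent TGF-beta, had 0.13 ± 0.030 (Gaq) and 0.14 ± 0.027 (Ga13). Its partner Itgb8 rose, with a log2 change of 0.49 ± 0.12 in Ga13, and Crim1 had a change of 0.12 ± 0.031 in Gaq. In Gai none of 24 passed with edgeR, 3 had an unadjusted p under 0.05, and DESeq2 called none.

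Other ligands and co-receptors were mostly below the filter: 14 of 31 were tested in Gas and 15 of 31 in each fibroblast line. In Gas 3 rose and 1 fell (median log2 change 0.20). Gdf15, a stress-induced ligand, was at 33.1 ± 2.08 CPM stimulated and 21.9 ± 2.08 CPM unstimulated, a log2 change of 0.60 ± 0.060. Nrros and Lrrc32, which anchor latent TGF-beta at the cell surface, rose, with log2 changes of 0.85 ± 0.093 and 0.47 ± 0.10. Rgmb, a BMP co-receptor, fell, with a log2 change of -0.15 ± 0.055 in Gas and was the only gene of the list to pass in Gaq and Ga13, where it rose, with log2 changes of 0.21 ± 0.052 and 0.29 ± 0.032; the difference from Gas was not tested. In Gai none passed with edgeR, none had an unadjusted p under 0.05, and DESeq2 called none.

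Levels of many members differed between the astrocytes and the fibroblasts, as did those of many other genes. In all 12 astrocyte libraries 14 members were above all 36 fibroblast libraries, and 16 were below them. Over the 19316 genes measured 27.3% lay above and 21.6% below, and cell type, line, medium and virus dose go together here, so no test was made. Scaling mattered: TMM moved the median gene by -0.40 on the log2 scale between the cell types, and without TMM 16 members lay above and 10 below, where 40.4% of all genes lay above and 12.5% below. The same 14 were above and the same 10 below under both scalings. The share of all genes apart under both scalings was not computed.

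Of the higher members Id4 was at 213 to 240.0 CPM in the astrocyte libraries, against 2.04 to 13.2 CPM in the fibroblast libraries, and Id1, Id2 and Id3 were higher too. Nog was at 48.5 to 70.6 CPM in the astrocyte libraries, against 0 to 0.511 CPM in the fibroblast libraries, Smad9 at 29.1 to 44.4 CPM in the astrocyte libraries, against 1.03 to 4.08 CPM in the fibroblast libraries, and Bmp6 at 112 to 139 CPM in the astrocyte libraries, against 9.0 to 15.8 CPM in the fibroblast libraries. Bmp7, Inhbb, Bmpr1a, Acvr1b, Acvr2b, Smad5 and Bambi complete the 14. Among the lower ones Inhba was at 14.5 to 31.5 CPM in the astrocyte libraries, against 1122 to 3146 CPM in the fibroblast libraries, and Grem1 at 0.238 to 1.08 CPM in the astrocyte libraries, against 349.7 to 708 CPM in the fibroblast libraries. Tgfb1 was at 11.3 to 13.6 CPM in the astrocyte libraries, against 107 to 195 CPM in the fibroblast libraries, and Tgfbr2 at 53.5 to 64.0 CPM in the astrocyte libraries, against 276 to 354 CPM in the fibroblast libraries. The others of the 10 were Bmp1, Bmp5, Tgfb3, Acvrl1, the type I receptor ALK1, Tgfbr1 and Tgfbr3. Bmpr1b, Bmpr2, Smad1, Smad2, Smad4, Smad6, Tgfb2, Bmp2 and Bmp3 overlapped between the cell types with TMM scaling.

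Among the fibroblast lines Inhba was highest in Gai, at 2559 to 3146 CPM stimulated and 2411 to 2725 CPM unstimulated, above every Gaq and Ga13 library in the same state. The Gaq and Ga13 libraries overlapped in both states, and no level difference between lines was tested.

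**Figure D5:**
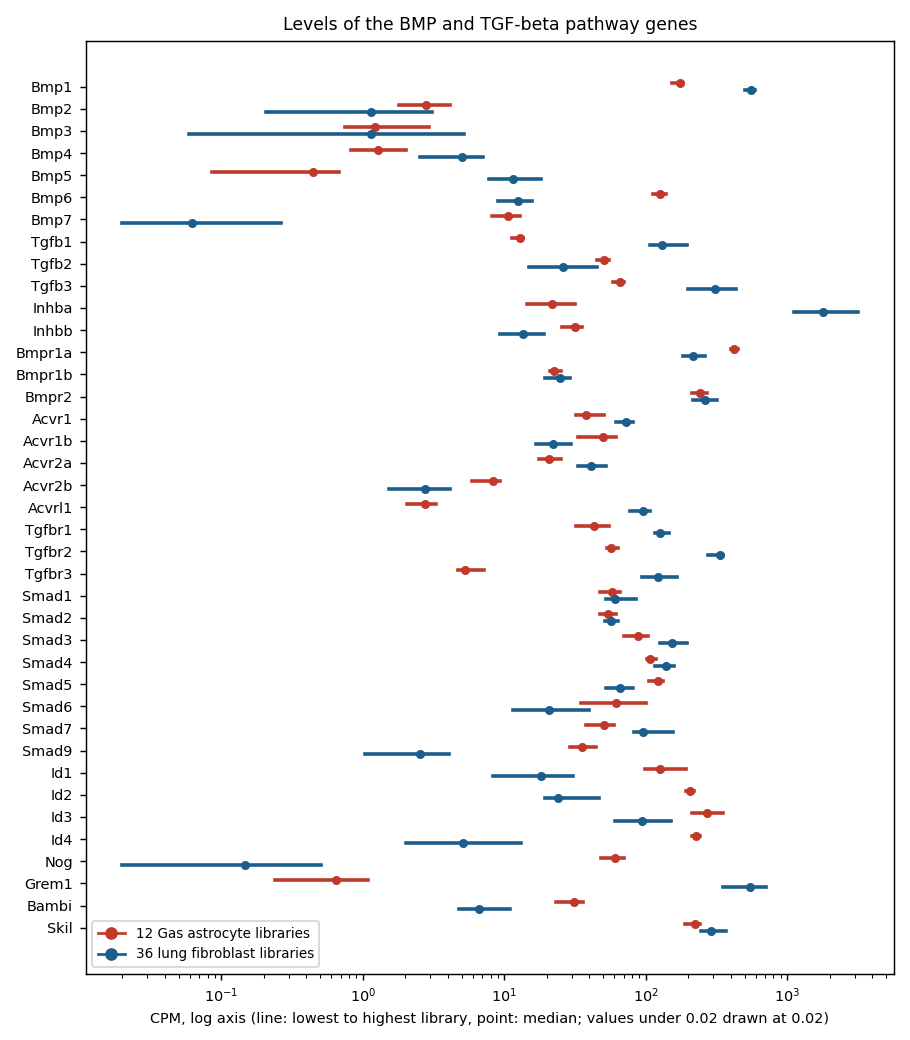
CPM of the 39 members (x axis, log scale) is shown for the 12 Gas astrocyte libraries in red and the 36 lung fibroblast libraries in blue; lines run from the lowest to the highest library and points are medians. Nog, Id4 and Smad9 lie far higher in astrocytes, and Grem1, Inhba and Acvrl1 far higher in fibroblasts. Values at or near 0 are drawn at the lower end of the axis.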

How the data were processed

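Gene counts for 48 libraries of poly-A RNA were deposited by the authors as raw counts per gene, and the analysis began from them. Reads had been trimmed with fastp and assigned with Subread and featureCounts on GRCm39, per the submitters' processing notes; versions and strand use are not given in the sources used here. Libraries were grouped by line, stimulation and virus from the labels, with 3 libraries in each group and total counts of 15.6 to 42.6 M per library.

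Each line was fitted with edgeR 4.0.16 (limma 3.58.1, R 4.3.3): default filter on low counts, TMM scaling, robust quasi-likelihood fit of 4 groups, and contrasts for the response to agonist averaged over the viruses, the response with each virus, Cre against empty virus in each state, and the difference of the responses. The 36 fibroblast libraries were also fitted together to compare lines. Adjusted p-values are Benjamini-Hochberg over all genes tested except the biosensor, and a gene was called under 0.05. The fits were also run on simulated counts of independent libraries. These held no replicate effect, so they do not bear on the pairing in Gai. Printed CPM values use TMM over all 48 libraries.

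The members and gene lists were chosen with earlier results of these data known. Values by library or as lowest, median and highest were given for members called with a log2 change of at least 0.25 in 1 line or more, or called in a virus or line comparison. From each further list, up to 4 called genes per line with the smallest p were named, except 1 that is not reported here. Replicate numbers were checked as pairs: deviations of same-numbered libraries correlated at 0.170 to 0.682 over all 18 Gai pairs, above the minimum of 0.1, so they were taken as paired there. Blocked values are given beside the member results they change in Gai and in comparisons of Gai with other lines. The further gene lists and the cell type markers were fitted without the block. The lowest correlation was -0.083 in Gas, 0.015 in Gaq and -0.0023 in Ga13, under that minimum, so no pairing was taken there. The median was 0.044 in Gas, 0.12 in Gaq and 0.17 in Ga13. For different numbers it was -0.010, -0.085 and -0.050, so falling short of the minimum does not show that pairing was absent. Alternatives were DESeq2 1.42.0 size factors, its Wald test, no filter on low counts, the replicate number as a block (within each line in the joint fit) and leaving out each library. Promoter windows came from a RefSeq table of GRCm38.p6, another build than that of the counts, so its coordinates apply to that table only.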

Additional observations from a re-analysis of the deposited data

Results flagged for a closer look

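The Inhba response to TRAP-6 differed between viruses in Ga13 fibroblasts, larger with Cre virus than with empty virus by 0.42 on the log2 scale (edgeR adjusted p = 0.0300). It also differed between lines: Gai minus Ga13 was -0.39 (edgeR adjusted p = 0.0160).

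The effect of Cre virus differed between fibroblast lines for 2 members without the replicate block. The difference itself was tested in the joint fit of 36 libraries. For Tgfbr2 the log2 difference was 0.22 between Gaq and Gai (edgeR adjusted p = 0.00347) and 0.21 between Gaq and Ga13 (0.00423). For Tgfb1 it was -0.32 between Gaq and Gai (0.00261) and -0.23 between Gaq and Ga13 (0.0472). The Tgfb1 call against Ga13 was lost without any 1 of 23 of the 36 libraries. With the replicate block Grem1 differed too, by -0.31 between Gaq and Gai (edgeR adjusted p = 1.74e-06) and by -0.35 between Gaq and Ga13 (1.06e-07). Inhba (0.0413) and Id3 (0.0151) then also differed between Gaq and Ga13. These comparisons of Cre effects were added after the data were seen.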

How the results depend on the processing

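Of the 58 called gene results followed through the alternatives, 45 stayed past the threshold under every one, 13 were lost under at least 1 and none reversed. Of 18 that were not called, 9 were called under at least 1. Those 18 were mean responses of chosen members only: Acvr1b, Grem1, Id1, Id2, Id3, Inhba, Smad3, Tgfb1 and Tgfb2. Each of these was called in another line, so the 18 do not stand for uncalled results at large. Smad6, Id1 and Id3 kept their calls for the response to agonist under every alternative in each line where they were called.

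Counts of called members moved as follows. With the DESeq2 Wald test 4 members fell in Gai, 2 rose in Gaq, and 1 was called for the response difference in Gaq and 1 for Cre against empty virus in stimulated Ga13. With no filter on low counts 5 fell in Gai, and 1 was called for the Gaq response difference, 1 and 1 for Cre against empty virus in unstimulated and stimulated Ga13, 2 for the Ga13 response difference and 2 between Gai and Ga13. With the replicate block 8 fell in Gai, 7 fell in Gaq and 5 rose in Ga13, and 2 were called for the Gaq response difference, 2 for Cre against empty virus in stimulated Ga13, 2 for the Ga13 response difference, 3 between Gai and Gaq, 4 between Gai and Ga13, and 5 for the Cre effect of Gaq against Ga13. The block changed no other count by over 1.5 times. It raised calls over all genes as well. Falling genes in Gai went from 0.388% to 2.1%, Gai against Gaq from 0.137% to 0.961% and Gai against Ga13 from 0.316% to 1.72%. For the other counts in this paragraph the share of all genes under the same setting was not computed. Outside Gai the replicate numbers fell short of the minimum correlation set for pairing.

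Leaving out 1 library at a time gave 2 to 4 members falling in Gai, 2 to 4 rising and 3 to 5 falling in Gaq, 3 to 5 rising in Ga13, 2 to 6 for Cre against empty virus in stimulated Gaq, 0 to 1 for the response difference in Gaq and in Ga13, 0 to 1 for Cre against empty virus in unstimulated and in stimulated Ga13, and 1 to 2 for the Cre effect of Gaq against Ga13. The Tgfb2 response in Gai, 0.066 on the log2 scale and not called, turned negative without any 1 of 4 libraries, over a range of -0.12 to 0.17. Without TMM scaling 10 members were lower in astrocytes, against 16 with it. The cause of these shifts was not tested. With 3 libraries a group, changes of genes with few counts were estimated loosely: standard errors of the response reached 0.53 for Bmp3 in Gai and 0.37 for Bmp5 in Gas.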
